A study of Mus musculus with 4 samples.

Results

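Genes that carry a cell from G2 through mitosis were followed in leukaemia stem cells, which maintain a leukaemia, by ribosome footprinting with matched RNA. The 36 genes were those of a written list of mitotic kinases, cyclins, and spindle, kinetochore and chromosome condensation proteins, matched by symbol, and all 36 were found among the 16442 genes of the deposited table. In the libraries labelled KO, RNA of 21 of the 36 genes rose relative to WT, where 33.1% of the 6389 genes tested did, and RNA of 0 fell, where 27.7% did (limma adjusted p below 0.05). None of the 36 passed in footprints, where 0.595% of tested genes were higher and 0.47% lower, or in translational efficiency (TE, the footprint level per RNA level), where 0.0% were either. The RNA rises covered all 6 chromosome structure genes, among them Mki67, Smc4 and Top2a, and all 5 centromere and kinetochore genes, but not Ccnb1, Plk1, Aurka or Cdc20. In footprints, the highest differences belonged to Top2a and Mki67 and the lowest to Ccnb1 and Birc5.

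All cells came from the bone marrow of C57BL/6 mice with leukaemia. The titles call 2 libraries KO and 2 libraries WT without naming a gene. The study's design text compares wild type with an Rreb1 knockout. Rreb1 encodes a zinc-finger transcription factor that binds Ras-responsive elements. The deleted part of Rreb1, the promoter or Cre that made the deletion, how the leukaemia was induced, and whether animals were pooled are not given in the sources used here. For KO replicate 2 the genotype entry is Rreb2-KO, and its title placed it with KO. Lysates were digested for 30 minutes with 10 µg/ml of micrococcal nuclease, and protected fragments of 25 to 40 nucleotides were sequenced, while part of each lysate served as the RNA input. Which animals the replicates came from is not stated, so a p-value here measures spread among libraries, which may be technical.

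Mitotic entry is driven by cyclin-dependent kinase 1 bound to A- and B-type cyclins, and mitotic exit by the anaphase-promoting complex (APC/C), a ubiquitin ligase that marks cyclin B and securin for destruction once the spindle checkpoint is silenced. RNAs of these genes are made mainly in late S phase, G2 and mitosis, so in dividing cells their level can vary with how many cells are in those phases. The part of cell cycle phase in the results below was not tested. In resting cells the DREAM complex holds many of them off, and in dividing cells B-Myb and FoxM1 bring them on through the same promoter element.

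Recovered footprint reads numbered 364087 and 274183 in KO and 878068 and 656249 in WT, beside an estimated 17037500 to 19122000 RNA reads per library. A footprint level is given in RPKM, which scales reads to gene length and library depth, and a single read on a gene of 1 kilobase was worth 2.75 and 3.65 RPKM in KO, against 1.14 and 1.52 RPKM in WT. Across the 6389 genes tested, the log2 footprint levels of replicates correlated at r = 0.782 in KO and 0.940 in WT, and those of RNA at 0.996 in KO and 0.997 in WT (across genes, which are not independent replicates). Rreb1 itself had 12.9 and 8.19 RPKM of footprints in KO, against 14.1 and 12.8 RPKM in WT, and 6.10 and 6.93 RPKM of RNA in KO, against 3.33 and 3.25 RPKM in WT. Its RNA was thus higher in the libraries labelled KO, by 0.81 ± 0.09 on the log2 scale (SE, limma adjusted p = 0.000283), so it does not settle the labels, and every direction below refers to the libraries as labelled.

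Markers of other blood cells differed between the groups along with the mitotic genes. Summed RNA of the 10 stem cell and leukaemia markers was 703 and 703 RPKM in KO, against 669 and 652 RPKM in WT, and all 10 were present at 1 RPKM or more. Of these, 3 rose, near the 33.1% of all tested genes that did, and 0 fell, where 27.7% of all tested genes did. Among the 3, Cd34 had 50.5 and 49.8 RPKM in KO, against 4.41 and 4.71 RPKM in WT. Kit had 7.36 and 7.15 RPKM in KO, against 1.97 and 2.32 RPKM in WT. Myb had 33.4 and 36.5 RPKM in KO, against 30.6 and 27.6 RPKM in WT. Spi1 and Cd47 made up most of the sum. The 11 neutrophil and monocyte markers summed to 12610 and 12203 RPKM in KO, against 32997 and 32216 RPKM in WT. In this list 8 fell (27.7% of all tested genes did) and 2 rose (33.1% did). Chil3 made up the largest part of the fall, with 313 and 291 RPKM in KO, against 10543 and 10534 RPKM in WT. Prtn3 and Ly6c2 rose. Prtn3 had 1334 and 1357 RPKM in KO, against 823 and 798 RPKM in WT. Ly6c2 had 645 and 705 RPKM in KO, against 232 and 211 RPKM in WT. Mast cell and basophil markers (6 of 9 in the table) summed to 300 and 290 RPKM in KO, against 31.2 and 28.1 RPKM in WT, led by Cpa3. Eosinophil markers (5 of 6) summed to 289 and 276 RPKM in KO, against 12.8 and 13.3 RPKM in WT, led by Prg2. Of these, Ear2 was lower in KO, with 2.94 and 3.10 RPKM, against 7.49 and 6.74 RPKM in WT. Erythroid markers, almost wholly haemoglobin RNA, summed to 391 and 471 RPKM in KO, against 78.4 and 69.6 RPKM in WT, with Klf1 and Epor below 1 RPKM throughout. T and NK markers (7 of 8) summed to 438 and 370 RPKM in KO, against 17.6 and 17.2 RPKM in WT, mostly Nkg7. B cell markers (2 of 6) summed to 28.3 and 26.4 RPKM in KO, against 43.0 and 40.5 RPKM in WT, mostly Cd79b. The other B cell marker, Cd79a, was higher in KO, with 3.09 and 3.71 RPKM, against 1.76 and 1.44 RPKM in WT. Stroma and endothelium markers (5 of 8) summed to 73.3 and 80.3 RPKM in KO, against 12.1 and 12.4 RPKM in WT. Pecam1 made up most of this sum, with 48.7 and 53.0 RPKM in KO, against 10.5 and 10.6 RPKM in WT. Pdgfrb had 19.0 and 21.0 RPKM in KO, against 0.974 and 1.10 RPKM in WT, while Sparc and Cxcl12 were below 1 RPKM throughout. The part of these cell types in the results below was not tested, and in bulk libraries more cells of a type and more RNA per cell cannot be told apart.

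Promoters of mitotic genes are known for 2 elements, the cell cycle genes homology region, typically TTTGAA or TTTAAA, through which DREAM, B-Myb and FoxM1 act, and the CCAAT box bound by NF-Y, often in spaced copies upstream. Windows of 250 bases before to 50 bases after the start, from RefSeq (GRCm38.p6), were held for 29 of the 36 genes, in 31 windows. Searched as exact letters on both strands, TTTGAA was found in 24 of the 31 windows (77.4%), against 17.9% of all 32851 promoter windows and 11.4% of the 35 windows of a list of DNA replication genes. TTTAAA, which reads the same on both strands and was counted once, was in 29.0% of the mitotic windows, against 13.2% of all. At least 2 CCAAT were in 51.6% of the mitotic windows, against 37.1% of the replication windows and 11.7% of all, and TTTGAA with at least 2 CCAAT in 45.2% of the mitotic windows, against 5.71% of the replication windows and 2.09% of all. A match of letters is a description and not a bound site.

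Shown are the promoters of 3 genes whose RNA rose and that hold both elements (Ccnb2, Cdk1 and Top2a), of Ccnb1, whose RNA did not pass the test, and of Mad2l1, whose RNA rose and whose window holds none of the 3 words. They are read 5′ to 3′ along each gene, with capitals for the words TTTGAA or TTTAAA and for the box CCAAT, on either strand. The windows lie at chr9:70421505-70421804 for Ccnb2, chr13:100786437-100786736 for Ccnb1, chr10:69352863-69353162 for Cdk1 and chr11:99024140-99024439 for Top2a, all on the minus strand, and at chr6:66534971-66535270 for Mad2l1 on the plus strand (RefSeq, GRCm38.p6).
Ccnb2: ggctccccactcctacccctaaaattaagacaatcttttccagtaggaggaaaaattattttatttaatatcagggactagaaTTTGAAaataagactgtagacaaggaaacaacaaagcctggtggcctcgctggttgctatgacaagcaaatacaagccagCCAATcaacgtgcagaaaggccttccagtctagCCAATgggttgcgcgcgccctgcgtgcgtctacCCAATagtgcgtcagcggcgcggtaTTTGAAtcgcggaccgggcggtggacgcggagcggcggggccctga
Ccnb1: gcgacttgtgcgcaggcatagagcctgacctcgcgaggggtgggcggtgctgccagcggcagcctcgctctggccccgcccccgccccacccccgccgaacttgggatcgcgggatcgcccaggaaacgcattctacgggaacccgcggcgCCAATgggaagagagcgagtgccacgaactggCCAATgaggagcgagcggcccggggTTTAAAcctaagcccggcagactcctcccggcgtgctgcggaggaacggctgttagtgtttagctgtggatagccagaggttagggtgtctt
Cdk1: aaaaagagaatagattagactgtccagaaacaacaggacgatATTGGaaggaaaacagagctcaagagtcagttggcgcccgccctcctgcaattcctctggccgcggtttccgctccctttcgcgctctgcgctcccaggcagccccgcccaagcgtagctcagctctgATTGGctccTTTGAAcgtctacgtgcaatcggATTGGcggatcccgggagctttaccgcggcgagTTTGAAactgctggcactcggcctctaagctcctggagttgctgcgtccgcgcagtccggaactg
Top2a: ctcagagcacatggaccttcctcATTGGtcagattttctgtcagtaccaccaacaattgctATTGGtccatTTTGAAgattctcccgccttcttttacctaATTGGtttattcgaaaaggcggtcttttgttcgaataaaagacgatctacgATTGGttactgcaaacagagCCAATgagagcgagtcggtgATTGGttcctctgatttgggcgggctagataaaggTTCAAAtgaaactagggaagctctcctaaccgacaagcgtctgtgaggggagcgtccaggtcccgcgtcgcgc
Mad2l1: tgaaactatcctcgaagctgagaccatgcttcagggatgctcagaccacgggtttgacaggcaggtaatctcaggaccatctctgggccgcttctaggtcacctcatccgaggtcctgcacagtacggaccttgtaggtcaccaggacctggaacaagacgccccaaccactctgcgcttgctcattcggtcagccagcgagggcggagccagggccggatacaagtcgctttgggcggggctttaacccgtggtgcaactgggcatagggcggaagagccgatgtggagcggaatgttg
The window of Ccnb2 has 2 TTTGAA, 1 of which begins 5 bases into the transcript, and 3 CCAAT that begin 87, 54 and 21 bases before the start. The Cdk1 window has 2 TTTGAA, beginning 71 and 15 bases before the start, and 3 CCAAT on the opposite strand. In Top2a there are 2 TTTGAA, 1 on each strand, and 6 CCAAT. Ccnb1 has no TTTGAA but 1 TTTAAA, 42 bases before the start, and 2 CCAAT.

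RNA of the chromosome structure genes rose in all 6 cases (33.1% of all tested genes did). These genes build and untangle mitotic chromosomes: Top2a encodes the topoisomerase that decatenates sister DNA, Mki67 the Ki-67 protein that coats mitotic chromosomes, and Smc2, Smc4, Ncapd2 and Ncapg are condensin subunits. Mki67 RNA was 22.9 and 32.1 RPKM in KO, against 12.9 and 11.4 RPKM in WT. This was the largest RNA rise of the 36 genes, 1.10 ± 0.15 on the log2(RPKM + 1) scale (SE, n = 2 each, limma adjusted p = 0.000616), with both KO libraries above both WT libraries but 1.40-fold apart from each other. Top2a RNA was 37.6 and 41.8 RPKM in KO, against 22.9 and 25.0 RPKM in WT, a difference of 0.71 ± 0.08 (limma adjusted p = 0.000297). Smc4 RNA was 113 and 117 RPKM in KO, against 71.8 and 68.1 RPKM in WT, and Smc2 RNA was 51.4 and 49.8 RPKM in KO, against 31.3 and 31.0 RPKM in WT. The groups were far apart in both, with differences of 0.71 ± 0.06 and 0.68 ± 0.06 (limma adjusted p = 9.58e-05 and 0.000104). The other condensin subunits gave differences of 0.63 ± 0.07 for Ncapd2 and 0.71 ± 0.09 for Ncapg (limma adjusted p = 0.000223 and 0.000461). The median RNA difference of the 6 genes was 0.71, against 0.31 over all 36 and 0.04 over all 6389 tested genes.

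**Figure D1:**
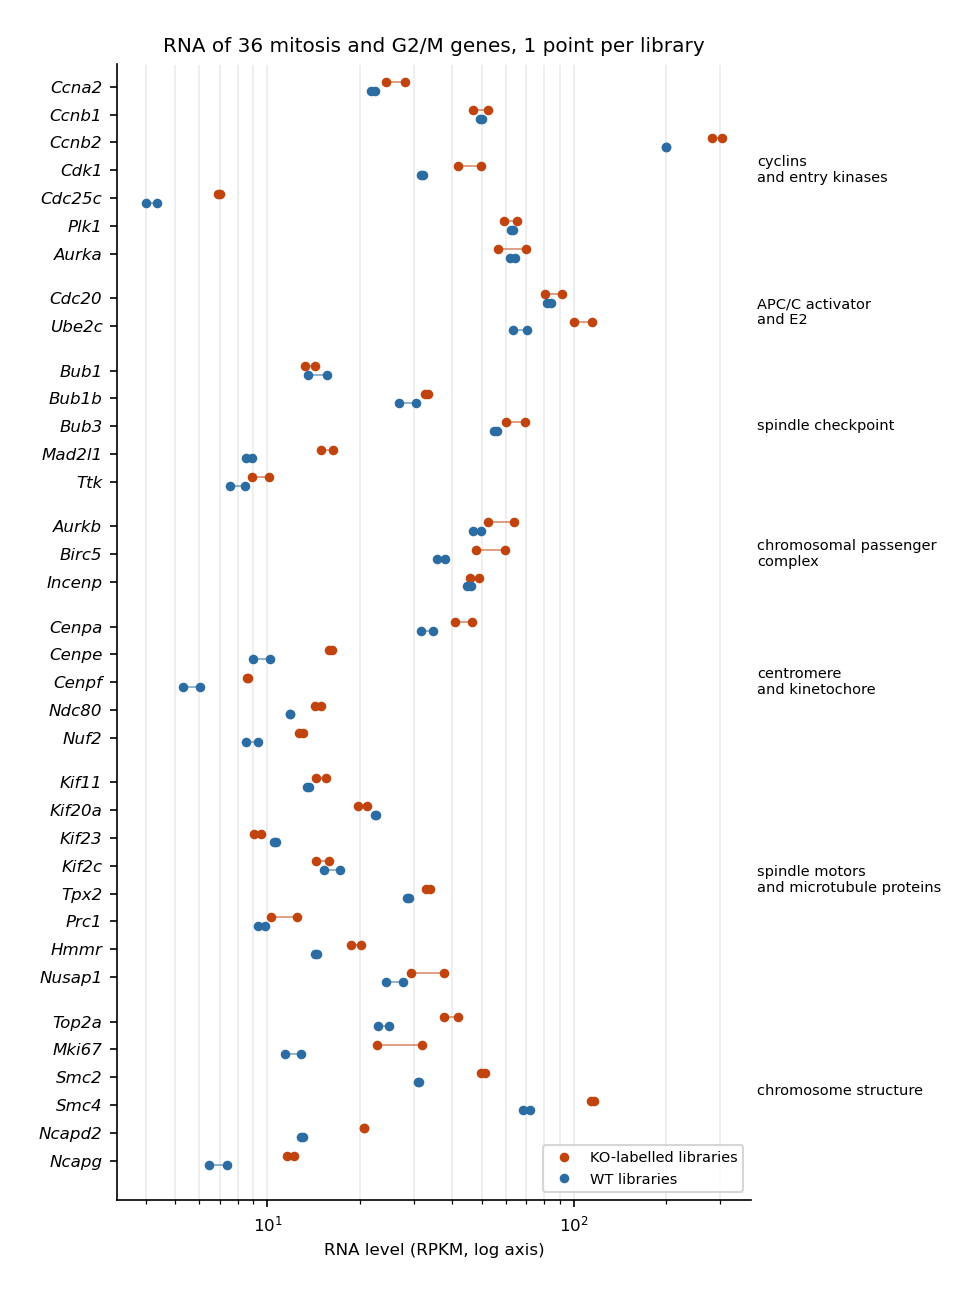
RNA level in RPKM (log axis) of each of the 36 mitosis and G2/M genes, with 1 point per library and a line joining the 2 replicates of a group, KO-labelled libraries above WT libraries in each row. The groups do not overlap for 29 genes, with KO above WT in 27 and below in Kif20a and Kif23, and the chromosome structure and centromere genes show KO above WT in every row.

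RNA of the centromere and kinetochore genes rose in 5 of 5 (33.1% of all tested genes did), with a median difference of 0.49. Cenpe encodes the kinesin that carries chromosomes to the metaphase plate, and its RNA was 15.9 and 16.2 RPKM in KO, against 10.2 and 8.95 RPKM in WT (0.69 ± 0.08, limma adjusted p = 0.000384). Cenpf, a kinetochore protein that peaks in G2, differed by 0.53 ± 0.09, and Nuf2 and Ndc80, partners in the complex that grips microtubules, by 0.49 ± 0.08 and 0.28 ± 0.07 (limma adjusted p = 0.00169, 0.00159 and 0.0123). Cenpa, the histone H3 variant that marks centromeres, had 46.7 and 40.8 RPKM of RNA in KO, against 31.7 and 34.6 RPKM in WT (0.39 ± 0.09, limma adjusted p = 0.00641). Both KO libraries lay above both WT libraries in each of these 5 genes, where 44.4% of tested genes did so. Without WT replicate 1, Cenpa and Ndc80 no longer passed, and without WT replicate 2, Ndc80 did not.

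The cyclins, kinases and phosphatase of mitotic entry were divided. Of the 7, 4 were higher in RNA (33.1% of all tested genes were) and 3 were not past the test. Ccnb2, a B-type cyclin, had 305 and 283 RPKM of RNA in KO, against 199 and 200.4 RPKM in WT, the highest RNA level of the 36 genes. Cdk1, the kinase it activates, had 49.8 and 42.0 RPKM of RNA in KO, against 32.3 and 31.8 RPKM in WT. Both rose with no overlap, Ccnb2 by 0.55 ± 0.07 and Cdk1 by 0.50 ± 0.09 (limma adjusted p = 0.000452 and 0.00241). Cdc25c, a phosphatase that removes the inhibitory phosphates of Cdk1, had the lowest RNA level of the list and rose by 0.62 ± 0.08 (limma adjusted p = 0.000662). Ccna2, the A-type cyclin of S phase and G2, had 28.2 and 24.4 RPKM of RNA in KO, against 21.8 and 22.5 RPKM in WT. Its rise of 0.23 ± 0.08 was just past the threshold (limma adjusted p = 0.0456) and did not pass with the replicate block, with the RNA filter, or without KO replicate 1, WT replicate 1 or WT replicate 2.

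The other B-type cyclin and both upstream kinases stood apart from Ccnb2 in their RNA values. Ccnb1 had 52.7 and 47.0 RPKM of RNA in KO, against 50.2 and 49.5 RPKM in WT, and the KO libraries lay on both sides of the WT libraries. Plk1, the polo-like kinase of mitotic entry and exit, had 65.1 and 59.1 RPKM in KO, against 62.4 and 63.2 RPKM in WT, and Aurka, the centrosomal Aurora kinase, 69.8 and 56.5 RPKM in KO, against 62.0 and 64.5 RPKM in WT. The groups overlapped in all of these, with RNA differences of -0.0033 for Ccnb1, -0.02 for Plk1 and -0.01 for Aurka, each with an SE between 0.07 and 0.10.

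Of the APC/C genes on the list, Ube2c rose in RNA and Cdc20 did not pass. Ube2c, the ubiquitin-conjugating enzyme of the APC/C, had 115 and 99.9 RPKM of RNA in KO, against 63.5 and 70.3 RPKM in WT, and rose by 0.67 ± 0.09 with no overlap (limma adjusted p = 0.000582). Cdc20, the activator of the APC/C in mitosis, had 91.3 and 80.3 RPKM of RNA in KO, against 81.9 and 84.2 RPKM in WT, and the groups overlapped.

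Spindle checkpoint genes hold anaphase until all kinetochores are attached. Of 5 on the list, 1 rose in RNA (33.1% of all tested genes did) and 4 did not pass. Mad2l1, the Mad2 protein that sequesters Cdc20, had 16.4 and 15.0 RPKM of RNA in KO, against 8.88 and 8.50 RPKM in WT. It showed the second largest RNA rise of the 36 genes, 0.78 ± 0.08 with wide separation of the groups (limma adjusted p = 0.000164). Bub1b, the BubR1 protein of the checkpoint complex, had 32.6 and 33.5 RPKM of RNA in KO, against 26.9 and 30.6 RPKM in WT, which did not overlap but did not pass (limma adjusted p = 0.0650). Differences were 0.21 ± 0.08 for Bub3, a BubR1 partner, 0.23 ± 0.09 for Ttk, the Mps1 kinase, and -0.07 ± 0.09 for Bub1, a checkpoint kinase, with limma adjusted p of 0.0533, 0.0731 and 0.497.

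Birc5 was the member of the chromosomal passenger complex, the Aurora B module that corrects faulty attachments, that rose in RNA. Birc5, or survivin, had 59.6 and 48.0 RPKM of RNA in KO, against 35.7 and 38.0 RPKM in WT (0.53 ± 0.10, limma adjusted p = 0.00382). Aurkb, its kinase, had 63.8 and 52.5 RPKM in KO, against 46.9 and 49.7 RPKM in WT, which did not overlap but did not pass (0.26 ± 0.10, limma adjusted p = 0.0545), and the scaffold Incenp differed by 0.06 ± 0.07. 

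Among the 8 spindle motors and microtubule proteins, 3 rose in RNA, near the 33.1% of all tested genes that did, and 5 did not pass. Hmmr, a spindle-pole microtubule protein, rose by 0.41 ± 0.07, Nusap1, a microtubule-bundling protein, by 0.35 ± 0.12, and Tpx2, the activator of Aurora A on the spindle, by 0.21 ± 0.06 (limma adjusted p = 0.00252, 0.0390 and 0.0254). Nusap1 did not pass without KO replicate 1, without WT replicate 1 or with the RNA filter, and Tpx2 did not pass without either WT replicate or with the replicate block. The lowest RNA differences of the list were those of 3 kinesins. Kif23, the central spindle kinesin of cytokinesis, had 9.52 and 9.02 RPKM of RNA in KO, against 10.5 and 10.7 RPKM in WT (-0.18 ± 0.08, limma adjusted p = 0.0798). Kif20a, the kinesin that brings the passenger complex to the midzone, had 21.2 and 19.7 RPKM in KO, against 22.5 and 22.5 RPKM in WT, and Kif2c, a microtubule depolymerase at centromeres, 15.9 and 14.4 RPKM in KO, against 15.3 and 17.3 RPKM in WT. Kif23 and Kif20a lay lower in both KO libraries, without passing. Kif11, the motor that separates spindle poles, had 14.4 and 15.5 RPKM in KO, against 13.4 and 13.7 RPKM in WT, and Prc1, a bundler of midzone microtubules, differed by 0.22 ± 0.10, neither past the test.

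Read together, 21 of the 36 genes (58.3%) rose in RNA, where 33.1% of all 6389 tested genes did, and 0 fell, where 27.7% of all tested genes did, by limma's adjusted p. No member had an unadjusted p below 0.05 in the lower direction either, where 29.3% of tested genes did. A rise of at least 1.5-fold on this scale was found for 10 genes (27.8%), where 13.0% of tested genes passed the same rule: Cdc25c, Ube2c, Mad2l1, Cenpe, Top2a, Mki67, Smc2, Smc4, Ncapd2 and Ncapg. Both KO libraries lay above both WT libraries in 27 genes (75.0%, where 44.4% of tested genes did so), and below in 2 (5.56%, where 37.6% did so). Summed over the list, RNA was 1620 and 1493 RPKM in KO, against 1183 and 1214 RPKM in WT. Of the 21 rises, 16 passed under each of the 12 planned fits.

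The RNA values were also set beside the promoter words. Of 22 genes with TTTGAA in a window, 12 rose in RNA (33.1% of all tested genes did), with a median difference of 0.34, and of 7 without it, 5 rose, with a median of 0.49. Mad2l1, Nuf2 and Nusap1 hold none of the 3 words in their windows, and all 3 rose. Of 15 genes with at least 2 CCAAT, 9 rose, and of 14 with fewer, 8 did.

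Footprints gave a different order of genes. None of the 36 genes passed limma's adjusted threshold, where 0.595% of tested genes were higher and 0.47% lower. At an unadjusted p below 0.05, 2 members were higher, Top2a and Mki67 (5.56%, where 5.84% of tested genes were), and 0 were lower, where 12.4% of tested genes were. The limma-voom fit on recovered reads also called 0 members. Top2a footprints were 357 and 337 RPKM in KO, against 183 and 190 RPKM in WT, and those of Mki67 were 134 and 161 RPKM in KO, against 86.9 and 84.1 RPKM in WT. Both genes lay clearly higher in KO, on 421 to 735 reads in each library. The differences were 0.90 ± 0.25 for Top2a and 0.77 ± 0.27 for Mki67 (limma adjusted p = 0.186 and 0.246).

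**Figure D2:**
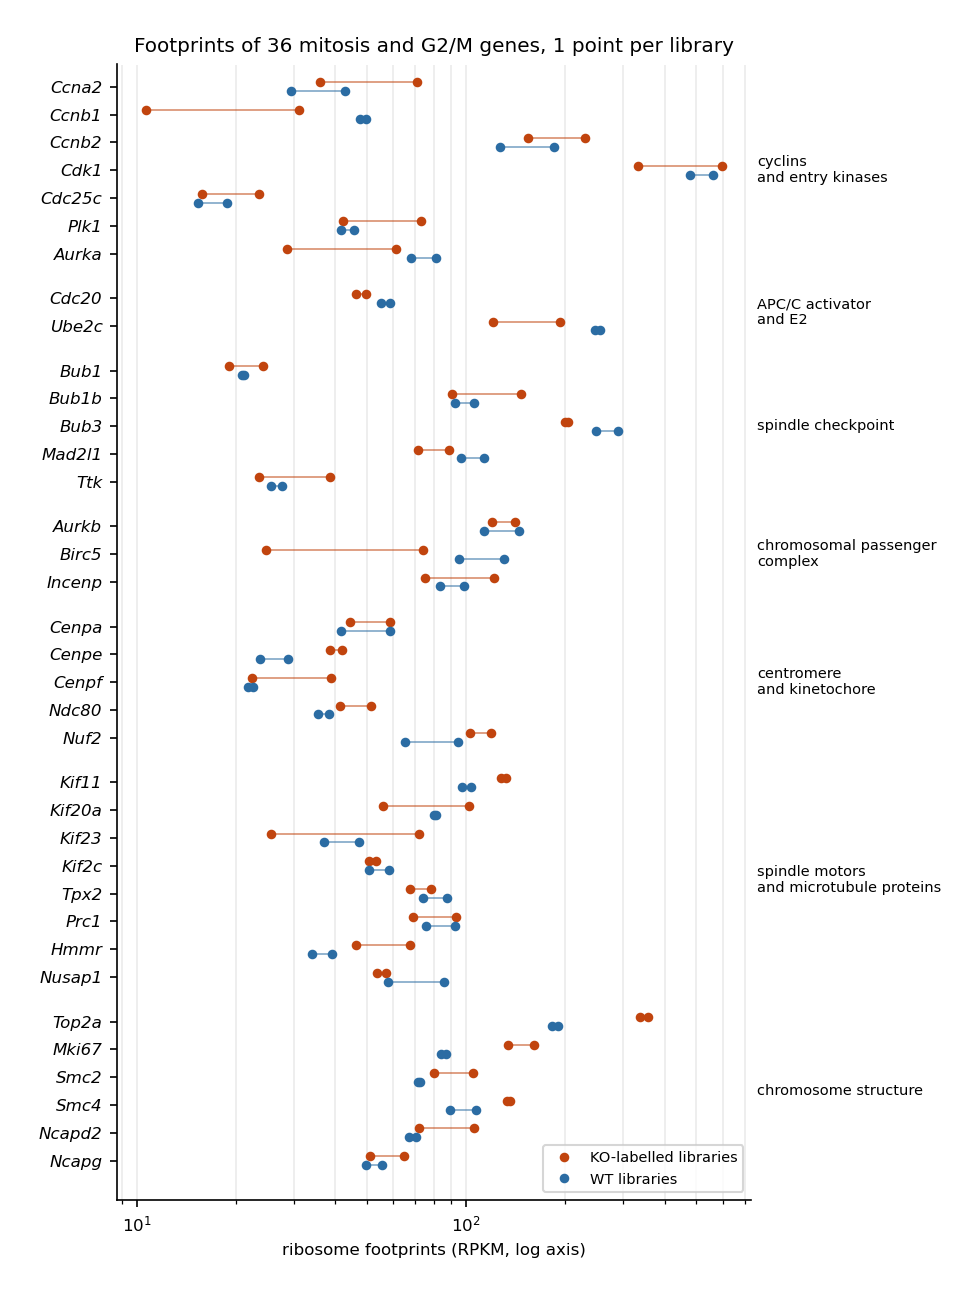
Ribosome footprint level in RPKM (log axis) of each of the 36 mitosis and G2/M genes, with 1 point per library and a line joining the 2 replicates of a group, KO-labelled libraries above WT libraries in each row. The KO replicates lie further apart than the WT replicates for many genes, and the groups do not overlap for 10 genes with KO above WT and 8 genes with KO below WT.

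The groups did not overlap with KO higher in 10 genes (27.8%, where 20.5% of tested genes did so): Top2a, Mki67, Smc2, Smc4, Ncapd2, Cenpe, Ndc80, Nuf2, Kif11 and Hmmr. Smc2 had 79.9 and 105 RPKM of footprints in KO, against 72.4 and 71.2 RPKM in WT, Smc4 136 and 133 RPKM in KO, against 89.3 and 107 RPKM in WT, and Kif11 128 and 132 RPKM in KO, against 97.4 and 103 RPKM in WT. All 3 were modestly higher in both KO libraries, and Smc4 differed by 0.45 ± 0.27. Larger differences were those of Cenpe, 0.60 ± 0.31, Hmmr, 0.60 ± 0.34, and Nuf2, 0.49 ± 0.32, also short of the threshold. All 6 chromosome structure genes and all 5 centromere and kinetochore genes had footprint differences above 0, where 2720 of the 6389 tested genes did. The medians were 0.40 in each of those roles, against 0.10 over the 36 genes and -0.13 over all tested genes. The 6 chromosome structure genes, Cenpe and Cenpf are also long, at 3000 bases or more, and footprint differences went with length, as described below.

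The groups did not overlap with KO lower in 8 genes (22.2%, where 32.1% of tested genes did so): Ccnb1, Birc5, Aurka, Ube2c, Bub3, Mad2l1, Nusap1 and Cdc20. Ccnb1 had 10.6 and 31.1 RPKM of footprints in KO, against 47.7 and 49.6 RPKM in WT. Birc5 had 24.7 and 73.9 RPKM in KO, against 94.9 and 130 RPKM in WT. Both lay lower in KO, but the KO replicates differed from each other by 2.92-fold and 2.99-fold. These levels rested on few reads, 5 and 11 in KO against 54 and 42 in WT for Ccnb1, and 4 and 9 in KO against 37 and 38 in WT for Birc5. The differences were -1.36 ± 0.56 for Ccnb1 and -1.35 ± 0.59 for Birc5 (limma adjusted p = 0.306 and 0.325).

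Aurka had 28.5 and 61.2 RPKM of footprints in KO, against 81.0 and 68.2 RPKM in WT (-0.81 ± 0.45), and Ube2c 121 and 192 RPKM in KO, against 246 and 254 RPKM in WT (-0.71 ± 0.33). Mad2l1 had 71.5 and 89.0 RPKM in KO, against 113 and 96.6 RPKM in WT (-0.39 ± 0.29), Bub3 differed by -0.41 ± 0.26, Nusap1 had 53.6 and 56.9 RPKM in KO, against 57.8 and 85.6 RPKM in WT, and Cdc20 had 49.5 and 46.3 RPKM in KO, against 58.6 and 55.0 RPKM in WT. Ube2c and Mad2l1 thus had footprint values on the other side of WT from their RNA, as did Birc5, Bub3 and Nusap1, and of these 5 all but Bub3 had passed in RNA. Cdc20 also lay lower in footprints, with RNA values that overlapped. Without KO replicate 2, the footprint differences were -2.09 for Ccnb1, -2.12 for Birc5, -1.35 for Aurka and -1.05 for Ube2c. In that fit the remaining KO library is assumed to vary as the WT libraries do. None of these genes passed in the other fits.

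The remaining 18 genes overlapped between groups in footprints. Cdk1 had the highest footprint level of the list, 333 and 598 RPKM in KO, against 477 and 561 RPKM in WT. Ccnb2 had 154 and 229 RPKM in KO, against 127 and 185 RPKM in WT (0.29 ± 0.36), and Ccna2 71.1 and 36.1 RPKM in KO, against 29.5 and 42.9 RPKM in WT (0.50 ± 0.46). In all of these the KO replicates were at least as far apart as the groups. Plk1 had 72.9 and 42.3 RPKM in KO, against 41.6 and 45.5 RPKM in WT, Aurkb 119 and 141 RPKM in KO, against 144 and 113 RPKM in WT, and Bub1b 90.5 and 147 RPKM in KO, against 92.7 and 106 RPKM in WT. Cenpa had 44.3 and 58.8 RPKM in KO, against 58.8 and 41.8 RPKM in WT, and Kif23 25.6 and 71.7 RPKM in KO, against 36.9 and 47.3 RPKM in WT. Kif20a had 56.0 and 102 RPKM in KO, against 80.0 and 81.0 RPKM in WT, and Kif2c 53.3 and 50.5 RPKM in KO, against 58.4 and 50.7 RPKM in WT. For Kif23 and Kif20a 1 KO library lay below and the other above both WT libraries, and Kif2c was nearly level. The other overlapping genes were Cdc25c, the lowest footprint level of the list, Bub1, Ttk, Incenp, Cenpf, Tpx2, Prc1 and Ncapg, with differences from -0.14 for Tpx2 to 0.40 for Cenpf.

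The median fold between replicates, taken gene by gene over the list, was 1.34 in KO and 1.16 in WT for footprints, and 1.08 in KO and 1.05 in WT for RNA. The SE of a footprint difference was accordingly several times that of an RNA difference, 0.25 for Top2a footprints and 0.08 for Top2a RNA.

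**Figure D3:**
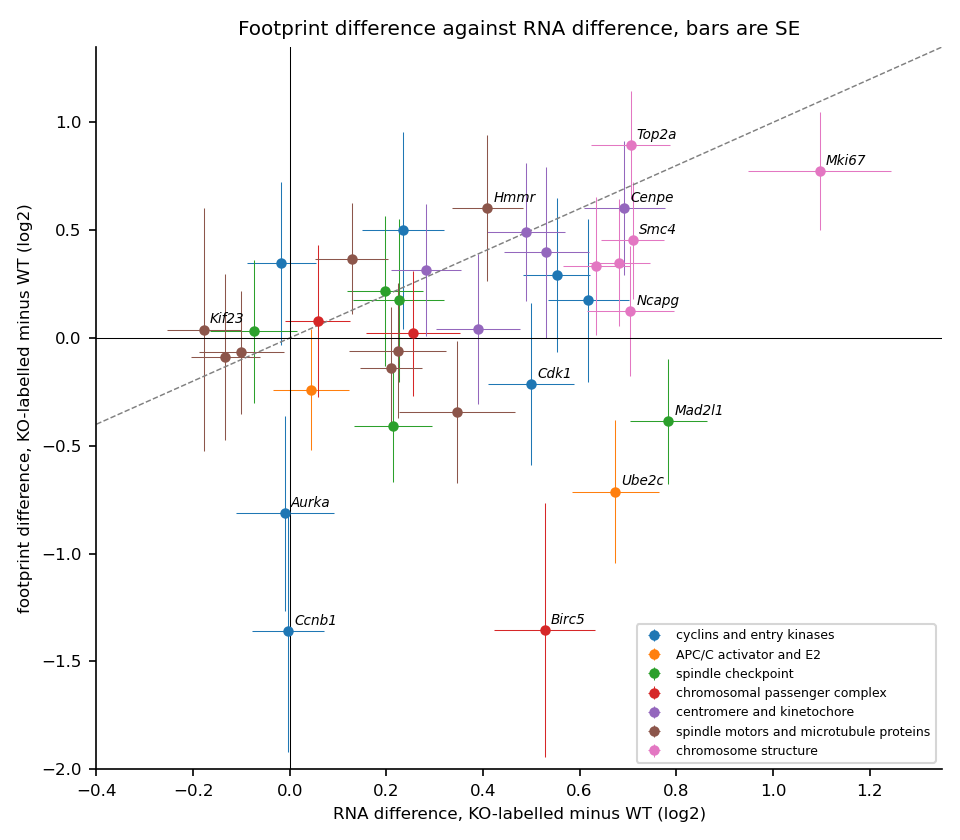
Footprint difference against RNA difference, KO-labelled minus WT in log2, for the 36 genes coloured by role, with bars for the SE and a dashed line where both are equal. Top2a and Mki67 lie high on both axes, Ccnb1 and Aurka have footprint differences below 0 with RNA differences near 0, and Birc5, Ube2c and Mad2l1 have RNA differences above 0.5 with footprint differences below 0.

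Across the 36 genes, the Spearman correlation of RNA and footprint differences was 0.392, against 0.419 across all 6389 tested genes, as a description over genes measured in the same 4 libraries. Footprint differences went with length. The correlation of the footprint difference with the length behind the RPKM was 0.639 over the 36 genes, against 0.222 over all tested genes, and that of the RNA difference 0.202, against -0.02. Recovered lengths can be too short by a whole factor, as is likely for Plk1 and Kif2c, whose coding sequences are longer, and without both the footprint value was 0.694 over 34 genes. All 11 genes of 3000 bases or more, among them Mki67, Cenpf, Cenpe, Top2a and the condensin subunits, had footprint differences above 0, with a median of 0.37. Of the 7 genes below 1000 bases in recovered length, which include Plk1 and Kif2c, 5 were below 0. Among these 5 were Birc5, Ube2c, Mad2l1 and Cdk1, and the median of the 7 was -0.21. Among all tested genes the medians were 0.08 for those of 3000 bases or more and -0.41 for those below 1000 bases. Differences below 0 were found for 527 of the 1147 tested genes of 3000 bases or more. Below 1000 bases, 1189 of 1684 were below 0. The part of length in the footprint differences was not tested.

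**Figure D4:**
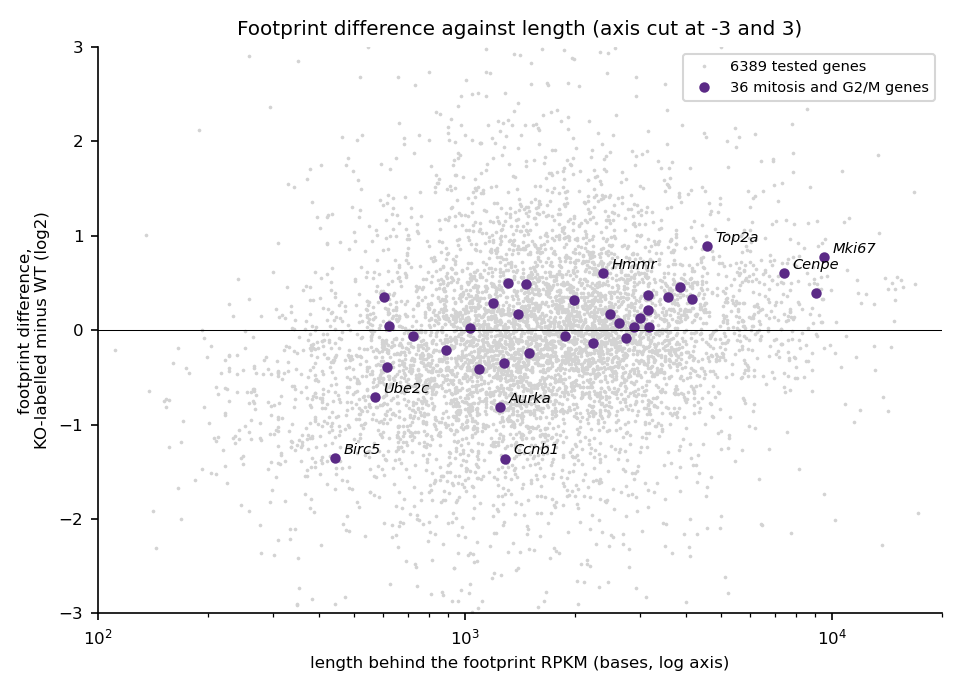
Footprint difference, KO-labelled minus WT in log2, against the length behind the footprint RPKM in bases (log axis), for the 36 mitosis and G2/M genes (purple) and all 6389 tested genes (grey). The long genes Top2a, Mki67 and Cenpe lie above 0 and the short genes Birc5 and Ube2c below it, with Ccnb1 and Aurka low at a middle length.

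TE compared the footprint level per RNA level, as the authors deposited it. The lengths behind the footprint and RNA RPKM differ, with a median ratio of RNA to footprint length of 2.86 over genes. Recovered RNA and footprint lengths were 4934 and 891 bases for Cdk1, and 1868 and 1497 bases for Cdc20. A ranking of TE across genes therefore also reflects these lengths, while KO and WT share them within a gene. No member passed limma's adjusted threshold, and 0.0% of the 6389 tested genes did in either direction, where 831 had an unadjusted p below 0.05. The members below that unadjusted level were Ube2c, Mad2l1 and Birc5, all lower in KO (8.33%, where 9.99% of tested genes were lower), and none was higher, where 3.02% of tested genes were. Ube2c TE was 1.05 and 1.92 in KO, against 3.83 and 3.58 in WT, a log2 difference of -1.39 ± 0.41. Mad2l1 TE was 4.17 and 5.62 in KO, against 11.5 and 10.3 in WT (-1.17 ± 0.34), and that of Birc5 0.425 and 1.53 in KO, against 2.62 and 3.37 in WT (-1.88 ± 0.68). These 3 genes lay lower in both KO libraries, at limma adjusted p of 0.318, 0.307 and 0.366. Ccnb1 TE was 0.217 and 0.669 in KO, against 0.950 and 1.00 in WT (-1.36 ± 0.64), and Cdk1, the highest TE of the list, 6.57 and 13.9 in KO, against 14.3 and 17.1 in WT (-0.71 ± 0.47). Without KO replicate 2, the TE differences were -2.80 for Birc5, -2.17 for Ccnb1 and -1.82 for Ube2c. That fit also assumes that the remaining KO library varies as the WT libraries do.

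Both KO libraries lay below both WT libraries in the TE of 14 members (38.9%, where 32.3% of tested genes did so) and above in Kif11 and Top2a (5.56%, where 15.6% did so). Top2a TE was 9.28 and 7.90 in KO, against 7.68 and 7.34 in WT (0.19 ± 0.31), a small distance beside the spread of the KO replicates, and Mki67 TE was 5.66 and 4.90 in KO, against 6.33 and 6.84 in WT. Lower TE values without overlap were also those of Bub3 (-0.62 ± 0.32) and Nusap1 (-0.69 ± 0.36). Smc2 TE was 1.54 and 2.09 in KO, against 2.27 and 2.26 in WT, Smc4 TE 1.20 and 1.14 in KO, against 1.24 and 1.57 in WT, and Cdc20 TE, the lowest of the list, 0.547 and 0.581 in KO, against 0.718 and 0.657 in WT, all slightly lower in KO without overlap. Kif11, the other gene with higher TE, had 8.40 and 8.05 in KO, against 6.83 and 7.09 in WT. Aurka TE, 0.417 and 1.08 in KO against 1.30 and 1.06 in WT, overlapped (-0.80 ± 0.56). The TE of both other cyclins overlapped as well, with 2.47 and 1.46 in KO, against 1.33 and 1.87 in WT for Ccna2, and 0.507 and 0.810 in KO, against 0.638 and 0.924 in WT for Ccnb2. So did that of Plk1, 1.12 and 0.722 in KO, against 0.671 and 0.724 in WT, of Aurkb, 1.86 and 2.65 in KO, against 3.03 and 2.25 in WT, and of Bub1b, 2.72 and 4.29 in KO, against 3.36 and 3.38 in WT. In these 5 genes the KO and WT values were interleaved or nested. Cenpa TE was 0.950 and 1.43 in KO, against 1.83 and 1.20 in WT, Kif23 TE 2.52 and 7.25 in KO, against 3.28 and 4.13 in WT, Kif20a TE 2.57 and 4.98 in KO, against 3.45 and 3.48 in WT, and Kif2c TE 3.22 and 3.35 in KO, against 3.64 and 2.83 in WT. None of these 4 separated the groups, and Kif23 had the widest gap between KO replicates among them.

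The median TE difference of the 36 genes was -0.26, against -0.15 over all tested genes, but it was 0.0014 after quantile normalization. In the authors' deposited table, p was under 0.05 for 6 of the 36 genes, against 20.9% of its 16442 genes: Mad2l1, Kif11, Ube2c, Bub3, Cdc20 and Birc5. The authors' deposited p-values lay within 4.5e-08 of a one-sided, unadjusted, equal-variance test on TE, although their column is headed as adjusted.

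Other genes of the same processes, taken from lists of complexes, were read beside the 36. Of 102 tested genes in 6 further mitotic lists, 61 rose in RNA (33.1% of all tested genes did), 3 fell (27.7% did) and 38 did not pass by limma. Their median RNA difference was 0.30, and none passed in footprints. At limma's unadjusted p below 0.05, 6 were higher and 3 lower in footprints, where 5.84% and 12.4% of all tested genes were. In RNA, 65 were higher and 6 lower at that level, where 35.7% and 29.3% of all tested genes were. Of 17 outer kinetochore and checkpoint genes 11 rose and none fell, led by Spc24, a partner of the Ndc80 complex, by 1.00 ± 0.08, and of 12 inner kinetochore genes 8 rose and none fell, led by Cenph by 1.24 ± 0.07. Of 25 further spindle and cytokinesis genes 19 rose and none fell, led by Haus3, a subunit of the augmin complex that branches spindle microtubules, by 0.93 ± 0.07. Among 17 condensin and cohesin genes 11 rose, led by the cohesin subunit Rad21 (0.53 ± 0.09), and Stag2, another cohesin subunit, fell (-0.21 ± 0.08). Of 12 tested APC/C genes 4 rose, near the 33.1% of all tested genes, led by the RING subunit Anapc11 (0.47 ± 0.08), 7 did not pass, and Anapc2, its cullin, fell (-0.24 ± 0.07). Of 19 entry regulators 8 rose, led by Cks1b, a small Cdk-binding protein (0.84 ± 0.08), 10 did not pass, and Mybl2, the B-Myb factor, fell (-0.45 ± 0.16). Mybl2 was just past the threshold (limma adjusted p = 0.0485). Its RNA was 7.45 and 7.69 RPKM in KO, against 13.1 and 8.64 RPKM in WT, so the WT replicates lay far apart. Of 36 DNA replication genes, which act before G2, 24 rose (33.1% of all tested genes did), 12 did not pass and 0 were lower at the adjusted or the unadjusted p (27.7% and 29.3% of all tested genes were), with a median of 0.39, led by Rpa3 (0.96 ± 0.07).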

How the data were processed

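The authors deposited 1 table of 16442 genes for 4 libraries, 2 KO and 2 WT. The submitters' processing notes list DESeq2, featureCounts, HISAT2 2.1.0 and CASAVA, and the human build hg38 although the samples are mouse; the tools' roles and the annotation are not given in the sources used here. The deposited footprint columns hold RPKM with 1 added, a unit read from the values. The deposited TE is the ratio of that footprint value to an RNA value with the same floor, and the last column, per the file headers, is a p-value.

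RNA RPKM was taken as footprint value over TE, minus 1. The steps between RPKM values gave whole reads within 0.002 reads, up to a common factor per gene, for the 10536 genes with footprints in 2 or more libraries, and so the depths. The test covered the 6389 genes that reached a CPM of 20 in recovered reads in 2 or more libraries; all 36 members were, 34 of them through all 4 libraries and 2 (Ccnb1 and Birc5) through 3. Since the values are RPKM, no count model was the main test. Log2(RPKM + 1) was fitted with limma 3.58.1 (R 4.3.3, eBayes with trend) with group as the only term, two-sided, with Benjamini-Hochberg adjustment over all tested genes and a threshold of 0.05. RNA was fitted alike, and TE as the difference of log2 footprints and log2 RNA. The pseudocount of 1 understates changes of low genes. Limma-voom on recovered reads was an alternative, with trimmed means of log ratios as scaling.

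Same-numbered libraries did not deviate together in footprints or TE (correlation of deviations 0.02 and 0.01). In RNA they tended to deviate in opposite directions (-0.34). Numbers were therefore not taken as pairs, although 2 replicates per group cannot exclude a pairing. Values in every library are given for a set of 16 core members, for the 3 highest and 3 lowest RNA differences and for members past the threshold in footprints or TE. Related lists are represented by their highest rise and lowest fall, and Rreb1 is given as the targeted gene. The members and lists were chosen with earlier results of these data known. Symbols were matched to RefSeq (GRCm38.p6) names; no coordinates of the deposited files were used. Python 3.11.15 was used for tables and plots.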

Additional observations from a re-analysis of the deposited data

How the results depend on the processing

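The count of members higher in RNA, 21, was 19 with the replicate block, 24 after quantile normalization and 16 to 25 with a library left out, and 0 members were lower in any of these; with the crossed pairing, added after the data were seen, 26 were higher and 4395 genes were called, against 3882. The median RNA difference was 0.27 with a pseudocount of 5 and 0.23 to 0.43 with a library left out, and 6502 genes were called in RNA without a filter and 6497 with the RNA filter. RNA differences of uncalled members changed sign: Ccnb1 was 0.013 and Aurka 0.0060 after median centring, Cdc20 -0.0015 after quantile normalization, and with a library left out they ranged from -0.083 to 0.077 for Ccnb1, -0.047 to 0.14 for Cdc20, -0.087 to 0.052 for Plk1, -0.16 to 0.14 for Aurka and -0.17 to 0.020 for Bub1. In footprints 68 genes were called, against 0 without a filter, 18 with a filter on the mean, 110 with a pseudocount of 5, 32 with the replicate block and 1164 at an unadjusted p under 0.05, where 2 members were higher; with a library left out 0 to 1097 genes and 0 to 4 lower members were called. The members' median footprint difference was 0.20 after quantile normalization, 0.27 by limma-voom and -0.10 to 0.23 with a library left out. In TE 1 gene was called with a pseudocount of 5 and 831, with 3 lower members, at an unadjusted p under 0.05; leaving out a library gave 0 to 699 genes and 0 to 3 lower members. The median TE difference was -0.12 after median centring, 0.0014 after quantile normalization and -0.46 to -0.050 with a library left out. The replicate numbers do not pair the libraries, and with only 2 numbers the block could not be judged further; it called 0 members in footprints and in TE. Where a library was left out, the lone sample of its group was assumed to vary as the other group does. Depth limits the footprint results, with 274183 assigned reads in the shallowest library, KO replicate 2, and 364087 in KO replicate 1. A member had as few as 4 reads, which was Birc5 in KO replicate 1.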
